A study of Mus musculus with 13 samples.

Results

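The TET dioxygenases of the mouse are encoded by Tet1, Tet2 and Tet3. All 3 were selected by gene symbol from the 35976 genes of the count table. The choice used no cut on their values, but earlier results of these data were known. All 3 were among the 14702 genes with enough reads for testing. RNA had been sequenced from male primordial germ cells at E14.5, the precursors of sperm, which were sorted by the Oct4-GFP reporter. Every group therefore shares the reporter, the sex and the stage. KO cells carry a knockout of Tet1, HxD cells an allele known to encode a TET1 protein without catalytic activity, V cells an allele known to encode a protein that stalls at 5-hydroxymethylcytosine, and WT cells are wild type. Each genotype had 3 libraries, each made from 5000 sorted cells. What the knockout deletes within the gene is not stated in the labels, nor is it whether replicate libraries came from different embryos.

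TET enzymes use iron and 2-oxoglutarate to oxidise 5-methylcytosine in DNA to 5-hydroxymethylcytosine and then to further oxidation products, which can be lost at replication or cut out by base excision repair. TET1 and TET3 have a CXXC domain that binds DNA, whereas TET2 lacks one and is brought to DNA by partners such as CXXC4. In mouse germ cells TET1 is known for its part in erasing methylation at imprinting control regions and at promoters of germ line genes. TET3 is best known from the zygote and TET2 from blood stem cells.

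The alleles HxD and V differ from wild type at a site that all 3 enzymes share. HxD is named after the histidine and aspartate that hold the catalytic iron, and V is known for a valine in place of a threonine shortly before them. The coding bases around this site are shown for each gene because they are what the alleles change, and because they show how far the paralogs differ at the place where their proteins are most alike. Capitals mark, in order, the codons of the threonine, the histidine and the aspartate in the reference transcripts of GENCODE M21.
Tet1: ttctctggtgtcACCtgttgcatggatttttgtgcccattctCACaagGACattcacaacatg
Tet2: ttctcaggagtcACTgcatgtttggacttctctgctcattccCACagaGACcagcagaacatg
Tet3: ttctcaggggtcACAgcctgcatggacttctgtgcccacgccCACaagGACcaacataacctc
These are codons 1642, 1652 and 1654 of the Tet1 reading frame, 1293, 1303 and 1305 of the Tet2 frame and 1075, 1085 and 1087 of the Tet3 frame. The exact base changes of both alleles are not stated in the labels. Over the 63 bases shown, Tet1 and Tet2 had 44 bases in common, Tet1 and Tet3 46, and Tet2 and Tet3 48. The longest run of identical bases between the full transcripts was 28 for Tet1 and Tet2, and 17 for each of the other pairs. Runs were sought on either strand and anywhere in the transcripts, so they need not lie at this site. Of all 50-base windows, 2 of 14320 in Tet1 also occurred in transcripts of other genes, against 0 of 9130 in Tet2 and 0 of 10855 in Tet3. Transcripts of the TET genes were not part of that search. As the longest run shared by their full transcripts was 28 bases, those had no 50-base window in common.

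Tet1 lies on chromosome 10 (62804570 to 62908996, minus strand, GRCm38), Tet2 on chromosome 3 (133463679 to 133545139, minus strand) and Tet3 on chromosome 6 (83362373 to 83459084, minus strand), by the GENCODE M21 annotation. Other annotated genes overlap each of them, 2 at Tet1, 1 at Tet2 and 3 at Tet3, and reads of overlapping genes may not be told apart. Library totals ran from 13584484 to 29641963 counts, and 11529 to 15715 genes had a count. Levels are given as CPM, a gene's read count relative to its library's total after TMM scaling. Markers of the sorted cells were present in every library, with summed levels of 3532 to 3918 CPM in KO, 3356 to 4305 in HxD, 3900 to 4163 in V and 4718 to 4894 in WT for 10 germ cell genes. Of these genes edgeR called Dazl, an RNA-binding regulator of germ cells, in KO and in HxD against WT. It called 0.218% and 0.034% of all genes there. DESeq2 called Ddx4 and Dazl in KO, Pou5f1 and Dazl in HxD and Pou5f1 in V. Over all genes with an adjusted p it called 1.96%, 1.3% and 0.516%. Dazl averaged 849 CPM in KO, 793 in HxD, 953 in V and 1754 in WT, so much of the higher WT sum came from this gene. The log2 fold change against WT was negative for 6 of the 10 genes in KO, 5 in HxD and 6 in V. Summed Sertoli cell markers reached 389 CPM in V 2 and 139 CPM in WT 3, against 14.4 to 72.3 CPM in the other 10 libraries. Of the 8 Sertoli markers edgeR called 0, and DESeq2 called 1, Cldn11, in each mutant against WT. Cldn11 averaged 2.27 CPM in KO, 2.75 in HxD, 3.15 in V and 0 in WT. V 2 also had the highest macrophage sum (23.0 CPM with 0 of 6 markers at 0, against 0 to 7.12 CPM elsewhere). Endothelial markers summed to 133 to 289 CPM, of which Pecam1, a gene also known from germ cells, made up most (mean 185 CPM), while Egfl7 averaged 8.97 CPM, Tek, Cdh5 and Kdr at most 2.47 CPM and Emcn 0. Interstitial markers to 0 to 35.4 CPM and erythroid markers to 0 to 17.8 CPM over all libraries. Fewer expressing cells cannot be told apart from less RNA per cell.

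Tet1, the gene mutated in 3 of the 4 genotypes, was by far the most abundant of the 3 transcripts in every library. It had 213, 201 and 225 CPM in KO 1, KO 2 and KO 3, 607, 735 and 536 CPM in the HxD libraries, 364, 450 and 625 CPM in the V libraries and 596, 589 and 639 CPM in the WT libraries. Every KO library lay below every library of the other genotypes, the HxD values lay on both sides of the WT values, and 2 of the 3 V libraries lay below all WT libraries while V 3 fell among them. The KO mean was 35.0% of the WT mean. With edgeR's quasi-likelihood test, Tet1 fell 2.86-fold in KO against WT (log2 fold change -1.51, SE 0.17, adjusted p = 1.41e-05). It ranked 1 of 14702 genes by p, in a comparison in which 0.218% of genes were called in either direction and 0.15% were called lower. Between 4277 and 5880 reads of Tet1 were still counted in each KO library.

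**Figure D1:**
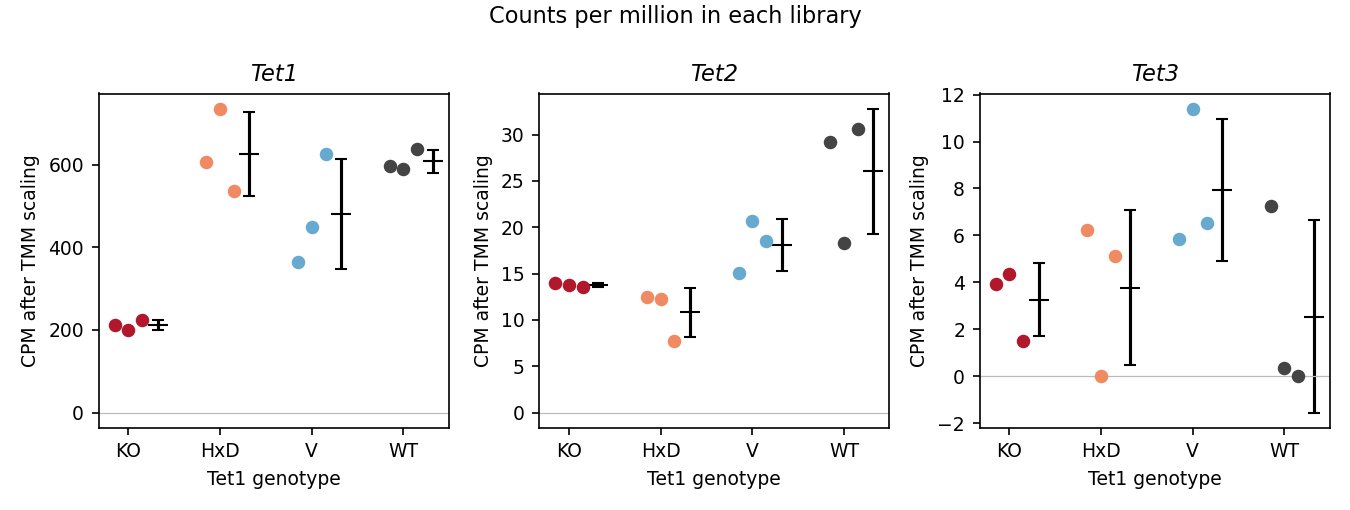
CPM of Tet1, Tet2 and Tet3 (y axes, a scale of its own in each panel) in each library, by genotype (x axis); points are libraries and the bars beside them the mean and SD of 3 libraries. Tet1 in KO sits between 201 and 225 CPM, below all other libraries, Tet2 is highest in WT 1 and WT 3, and Tet3 spreads from 0 upwards within HxD and within WT.

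The 2 mutant alleles that leave a protein had Tet1 RNA well above the knockout. Tet1 was 2.94-fold higher in HxD than in KO, at 1.56 on the log2 scale (SE 0.18, edgeR adjusted p = 7.87e-06), with no overlap, as for 3.69% of genes. It was 2.26-fold higher in V than in KO, at 1.17 (SE 0.17, edgeR adjusted p = 0.00222). Tet1 was the 1 gene called by edgeR in HxD against KO (0.0068% of genes tested). In V against KO it was 1 of 3 genes called (0.0204%), beside Uchl1, a ubiquitin hydrolase of spermatogonia (log2 fold change 1.75, SE 0.28), and Epas1, a hypoxia-inducible transcription factor (2.85, SE 0.50), both named after their values were seen. The call of Tet1 in V against KO rested on the libraries in the fit. It held without V 3, whose Tet1 level was the highest of its genotype (0.94, edgeR adjusted p = 0.0348), and was lost without WT 3 and V 3 together (0.94, edgeR adjusted p = 0.111) and in a fit of the V and KO libraries alone (1.18, edgeR adjusted p = 0.355).

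For Tet1 in HxD against WT the log2 fold change was 0.04 (SE 0.17, edgeR adjusted p = 1), with a 95% interval from 0.809-fold to 1.31-fold. The sign was reversed, at -0.09, without HxD 2, the library with the highest Tet1 level of all (735 CPM). Tet1 averaged 480 ± 133 CPM in V and 608 ± 27.0 CPM in WT (SD, n = 3 each), a log2 fold change of -0.34 (SE 0.17, edgeR adjusted p = 0.821) with an interval from 0.619-fold to 1.01-fold. Without V 3 it was -0.58 (edgeR adjusted p = 0.326), and without V 1 it was -0.17. V against HxD gave -0.38 (SE 0.17, edgeR adjusted p = 0.861), where edgeR called 0 genes, as it did in V against WT. At an unadjusted p under 0.05 these comparisons had 745 and 890 of 14702 genes, where about 735 would pass if no gene differed. DESeq2 called 91 and 74. The order of the mean levels was therefore HxD, WT, V and KO, and of the neighbours in this order the pair of V and KO was the one that differed beyond the spread. An F-test over all 4 genotypes called Tet1 (edgeR adjusted p = 3.13e-05), as 1 of 11 genes (0.0748%).

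Tet2 was lower in each mutant than in WT by its mean, and none of these differences passed the test. It had 13.96, 13.8 and 13.5 CPM in the KO libraries, 12.4, 12.3 and 7.75 CPM in the HxD libraries, 15.1, 20.6 and 18.5 CPM in the V libraries and 29.2, 18.3 and 30.6 CPM in the WT libraries. All 3 KO and all 3 HxD libraries lay below every WT library, and the V libraries overlapped the WT libraries through WT 2. Lower groups with no overlap were seen for 8.15% of tested genes in KO against WT and for 7.22% in HxD against WT, so many genes showed such a separation. The SD over the KO libraries was 0.225 CPM, against 6.76 CPM over the WT libraries.

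The log2 fold change of Tet2 in KO against WT was -0.92 (SE 0.52, edgeR adjusted p = 0.644), and its 95% interval ran from 0.252-fold to 1.11-fold of the WT level. A rise of Tet2 in KO by more than 1.11-fold lay outside that interval. In HxD against WT the value was -1.26 (SE 0.53, edgeR adjusted p = 0.562) with an interval from 0.198-fold to 0.877-fold, where 0.034% of genes were called. DESeq2 gave Tet2 an adjusted p of 0.0657 in that comparison. In V against WT it was -0.53 (SE 0.52, edgeR adjusted p = 1), from 0.333-fold to 1.45-fold.

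Between the mutants Tet2 was ordered V, KO and HxD, with no overlap between neighbours, a pattern seen for 5.15% of genes as higher in V against KO, 5.64% as lower in HxD against KO and 4.79% as higher in V against HxD. V against KO had a log2 fold change of 0.39, HxD against KO -0.34 and V against HxD 0.74, each with an SE of 0.52 and none called (edgeR adjusted p = 1, 1 and 0.918). Without V 2, the library with the most Sertoli and macrophage marker RNA, the value of V against HxD was 0.63. The part of other cell types in these levels was not tested. The F-test over the 4 genotypes did not call Tet2 (edgeR adjusted p = 0.85).

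Tet2 varied less between libraries of a genotype than most genes at its level. Its SD within genotypes, pooled over the 4 groups, was 0.30 on the log2 CPM scale, against a median of 0.65 for the 1867 genes with a mean CPM within 1.5-fold of that of Tet2. Of those genes 2.04% had a smaller SD. For Tet1 the pooled SD was 0.23, against 0.19 for 420 genes at its level.

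**Figure D2:**
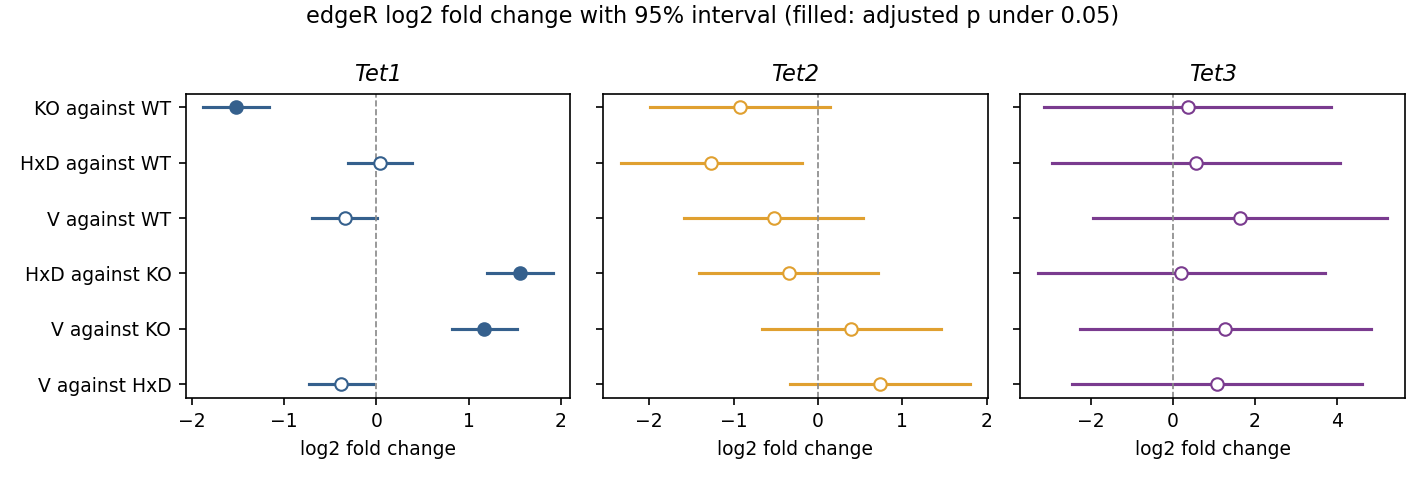
Log2 fold changes (x axis, a scale of its own in each panel) of Tet1, Tet2 and Tet3 in the 6 pairs of genotypes, with 95% intervals from the edgeR fit; filled points have an adjusted p under 0.05. Tet1 is called in the 3 pairs that include KO, the intervals of Tet3 all cross 0, and the interval of Tet2 in KO against WT ends at 0.15.

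Tet3 was the weakest of the 3 and varied between libraries of 1 genotype by more than between genotypes. It had 3.93, 4.37 and 1.49 CPM in the KO libraries, 6.22, 0 and 5.10 CPM in the HxD libraries, 5.86, 11.4 and 6.53 CPM in the V libraries and 7.27, 0.364 and 0 CPM in the WT libraries. The V libraries lay above all KO libraries, and every other pair of genotypes with HxD or WT overlapped. A higher group with no overlap was seen for 5.15% of tested genes in V against KO.

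These differences within a genotype were far larger than counting error. WT 1 had 145 reads of Tet3, whereas WT 2 had 8 reads (exact Poisson 95% interval 0.157 to 0.717 CPM) and WT 3 had 0. A count of 0 allows up to 0.131 CPM in WT 3 and up to 0.128 CPM in HxD 2, taking 3 counts as the limit. These intervals cover counting error only, since reads without molecular identifiers are not separate molecules.

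The libraries with no Tet3 read had the highest shares of missing genes at that level. Of 1355 genes with a mean CPM within 1.5-fold of that of Tet3, 23.8% were at 0 in HxD 2 and 34.0% in WT 3. V 3 had 23.0% at 0 with 6.53 CPM of Tet3, and V 2, with the highest Tet3 level, had 0.886%. WT 2 had 0.364 CPM of Tet3 with 1.62% of such genes at 0. Genes at the level of Tet2 were at 0 in at most 2.14% of cases in a library, and 0 of 420 genes at the level of Tet1 were at 0 in any library.

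No comparison of Tet3 was called. The log2 fold change was 0.36 in KO against WT (SE 1.72, 95% interval 0.113-fold to 14.6-fold, edgeR adjusted p = 1), 0.57 in HxD against WT (SE 1.72) and 1.64 in V against WT (SE 1.76), and the F-test over the genotypes gave an edgeR adjusted p of 1. Without WT 1 these became 4.12, 4.33 and 5.41, and without WT 3 they became -0.23, -0.02 and 1.05, all with edgeR adjusted p of 0.766 or more. In V 2, which also had the most Sertoli and macrophage marker RNA, Tet3 was at its highest, and without that library the value of V against WT was 1.28. The part of other cell types in the Tet3 level was not tested. A change of Tet3 in either direction, even of several fold, was not detectable with these libraries.

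**Figure D3:**
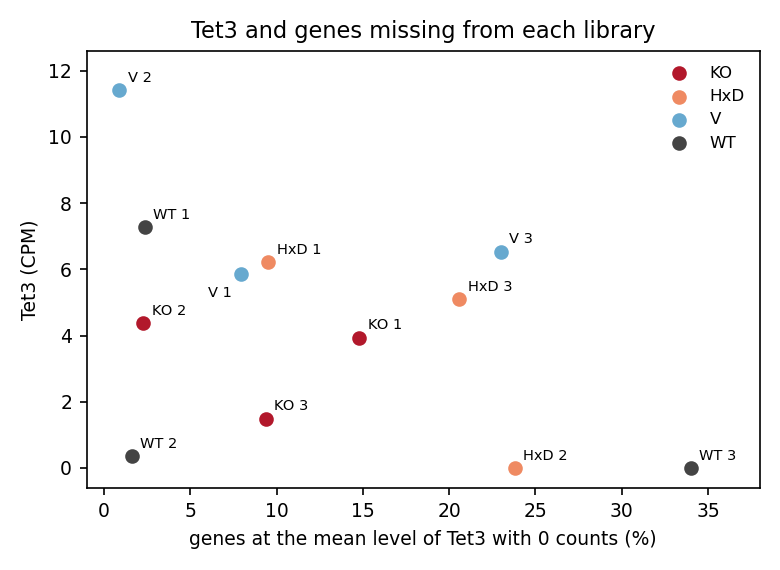
Tet3 level (y axis, CPM) against the percentage of 1355 genes of a like mean level that had 0 counts (x axis) in each of the 12 libraries. The libraries with 0 counts of Tet3, HxD 2 and WT 3, have 23.8% and 34.0% of such genes at 0, and WT 2 has a low Tet3 level with 1.62%.

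Levels of different genes were compared per length, as CPM divided by the length in kilobases of the longest coding transcript (RPKM). Tet1 averaged 14.8 ± 0.815 RPKM in KO, 43.6 ± 7.05 in HxD, 33.4 ± 9.25 in V and 42.3 ± 1.88 in WT (SD, n = 3 each). Tet2 averaged 1.5 ± 0.0244 RPKM in KO, 1.18 ± 0.290 in HxD, 1.97 ± 0.303 in V and 2.84 ± 0.736 in WT. Tet3 averaged 0.299 RPKM in KO, 0.346 in HxD, 0.727 in V and 0.233 in WT, with values for single libraries between 0 and 1.05. Among 20481 coding genes with a known length, Tet1 ranked 4715 to 5039 by RPKM in the KO libraries and 1816 to 2091 in the WT libraries. Tet2 ranked 9467 to 9747 in KO and 8189 to 9250 in WT.

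By this measure Tet1 RNA remained the largest part of TET RNA in the knockout. The length used for Tet1 in KO was that of the intact transcript, since what the knockout deletes is not stated. Its share of the summed RPKM of the 3 genes was 89.1 ± 1.37% in KO, 96.6 ± 0.906% in HxD, 92.3 ± 1.93% in V and 93.3 ± 1.903% in WT. The share of Tet2 was 9.04 ± 0.467% in KO, 2.60 ± 0.444% in HxD, 5.61 ± 1.11% in V and 6.21 ± 1.37% in WT. Its KO values (8.55 to 9.47%) lay above those of every other library. The Tet2 level itself averaged 13.8 CPM in KO and 26.0 CPM in WT. Within a library the RPKM of Tet1 was 9.30 to 10.6 times that of Tet2 in KO, 31.1 to 44.1 times in HxD, 13.95 to 21.6 times in V and 13.03 to 20.6 times in WT.

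The summed RPKM of Tet2 and Tet3, the paralogs that carry no mutation here, was 1.80 ± 0.164 in KO, 1.53 ± 0.348 in HxD, 2.697 ± 0.559 in V and 3.07 ± 0.941 in WT. The summed RPKM of all 3 genes was 16.6 ± 0.674 in KO, 45.1 ± 7.01 in HxD, 36.1 ± 9.37 in V and 45.4 ± 2.40 in WT. These sums over the members were given no test.

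**Figure D4:**
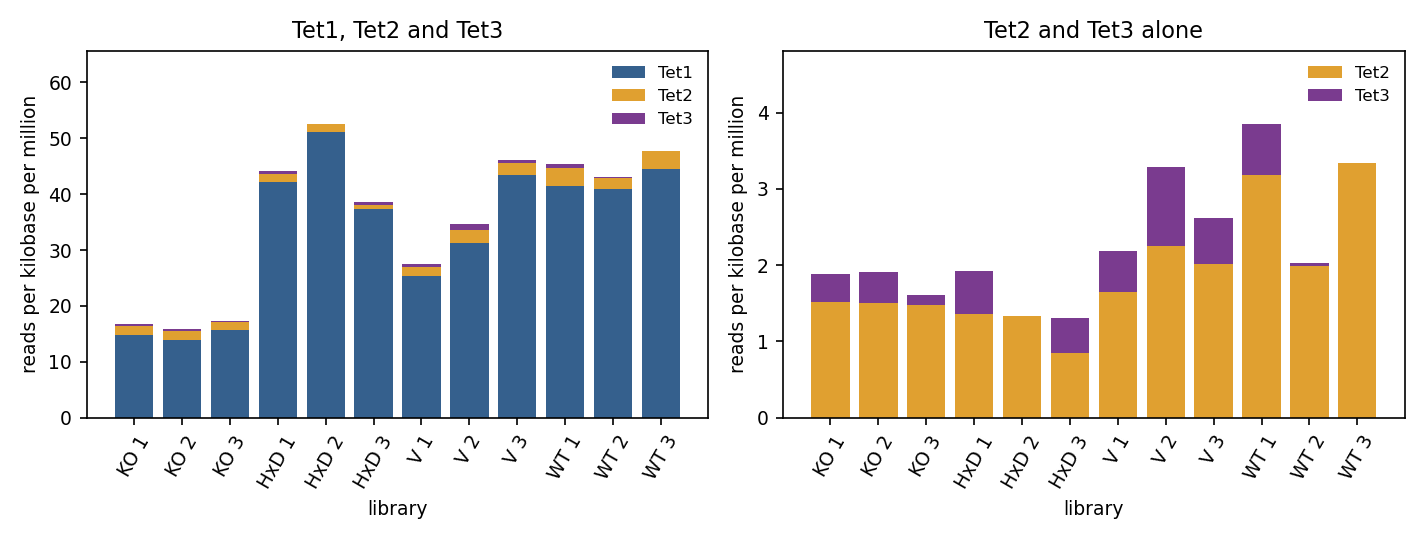
Stacked RPKM (y axes) of Tet1, Tet2 and Tet3 in each of the 12 libraries (x axes), with Tet2 and Tet3 shown again without Tet1 on a smaller scale. Tet1 makes up most of every bar, KO included, and the summed RPKM of Tet2 and Tet3 averages 1.80 in KO and 3.07 in WT.

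Paralog levels were also set against each other library by library. Over all 12 libraries, log2 CPM of Tet2 and Tet3 had a Pearson r of -0.17 (permutation p = 0.601, adjusted over 3 relations 0.853) and a Spearman rho of 0.25 (permutation p = 0.438, adjusted 0.658). Over the 9 libraries with no knockout, which carry the mutated gene at other levels, Tet1 and Tet2 had r = 0.07 (exact permutation p = 0.853, adjusted 0.853) and rho = 0.10 (exact permutation p = 0.81, adjusted 0.81). Tet1 and Tet3 had r = -0.58 (exact permutation p = 0.0827, adjusted 0.248) and rho = -0.46 (exact permutation p = 0.214, adjusted 0.643) over the same 9 libraries, and r = -0.65 without V 1 and V 2, the 2 libraries farthest from the median of Tet1. HxD 2 and WT 3, the 2 libraries with 0 counts of Tet3, had the highest Tet1 levels of the 9 (735 and 639 CPM). Their log2 values of Tet3 are set by a small added count, and r without them was not computed. All tests were two-sided, and they take libraries as exchangeable across genotypes. After subtraction of the genotype means, r was -0.13 for Tet2 with Tet3, 0.49 for Tet1 with Tet2 and -0.39 for Tet1 with Tet3, over the same libraries and with no test. Without the 2 libraries farthest from the median of Tet2, WT 1 and WT 3, the r of Tet2 and Tet3 was 0.10, and that of Tet1 and Tet2 without V 1 and V 2 was 0.20. No pair of paralogs thus had a relation that passed its test.

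The genes whose levels followed each member most closely are given as a description, by Pearson r of log2 CPM over the same 12 libraries. For Tet1 they were Actr1a (r = 0.89), a dynactin subunit, Nol11 (0.89), Coa5 (0.89), Lancl2 (0.87) and Myt1l (0.87). For Tet2 they were Papd5 (0.87), Syn1 (0.87), Gprasp1 (0.87), the piRNA pathway gene Mael (0.86) and Dennd2c (0.86). Mael was the 1 gene of these 10 that edgeR called against WT, with log2 fold changes of -2.45 in KO (adjusted p = 0.0018) and -2.89 in HxD (adjusted p = 0.000567). For Tet3 they were Inafm1 (0.95), the NF-kappa-B subunit gene Rel (0.94), the complement gene Cfp (0.93), Tmed3 (0.93) and Tmem106a (0.92), all with a mean under 13 CPM. Without the KO libraries, 0 of the 5 genes remained among the 5 closest to Tet1, which were then Champ1 (0.96), Tmcc1 (0.96), Dlg1 (0.95), Prrc2c (0.94) and Tnpo1 (0.94), against 1 of 5 for Tet2 and 3 of 5 for Tet3.

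The 3 nearest tested genes on each side of Tet1 on chromosome 10 had log2 fold changes from -0.40 to 0.37 in KO against WT. The value of -0.40 was that of Stox1, with a mean of 2.07 CPM over all libraries and an SE of 2.44. Of these 6 genes edgeR called 0 (lowest adjusted p = 0.629), where 0.218% of all genes were called, so the count alone does not set them apart. The nearest on the side of lower coordinates, Ccar1, a coactivator of transcription, averaged 237 CPM in KO and 292 CPM in WT (-0.31, SE 0.19, edgeR adjusted p = 0.686). On the other side Slc25a16, a mitochondrial carrier, averaged 13.7 CPM in KO and 15.1 CPM in WT (-0.14, SE 0.64), and Dna2, a nuclease of DNA replication, 290 CPM in KO and 225 CPM in WT (0.37, SE 0.19, edgeR adjusted p = 0.629). Of the 6 neighbours 0 were called in HxD against WT or in V against WT as well, where 0.034% and 0% of all genes were called. At the other loci 0 of 6 genes beside Tet2 and 0 of 6 beside Tet3 were called in any comparison with WT, at the same shares over all genes. The gene beside Tet2 on the side of higher coordinates, by tested genes, was Cxxc4, which encodes a protein that binds TET2, and it averaged 1.73 CPM in KO, 2.17 in HxD, 3.61 in V and 1.85 in WT.

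**Figure D5:**
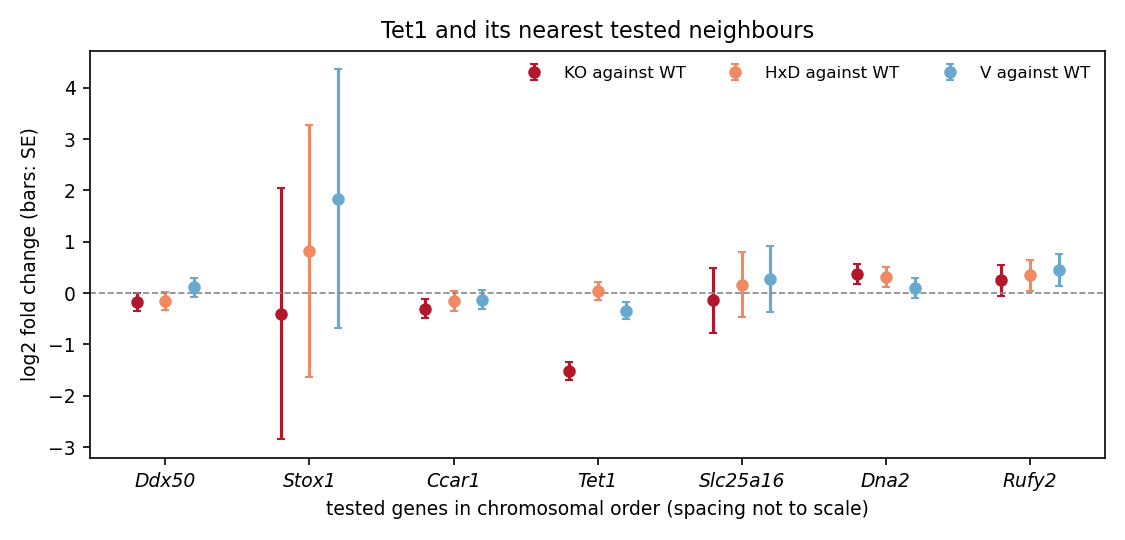
Log2 fold changes against WT (y axis, bars are SE) of Tet1 and of the 3 nearest tested genes on each side, in chromosomal order (x axis, spacing not to scale), for KO, HxD and V. Tet1 in KO lies at -1.51, and its neighbours in KO run from -0.40 to 0.37. The value of -0.40 is that of Stox1 (mean 2.07 CPM, SE 2.44), whose bar covers -1.51.

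Genes that act with the TET enzymes were described from lists, beside all genes tested, whose median log2 fold changes were 0.00 in KO, -0.02 in HxD and 0.01 in V against WT. Over all genes, edgeR called 0.218% in KO, 0.034% in HxD and 0% in V against WT, and DESeq2 called 1.96%, 1.3% and 0.516% in KO, HxD and V of those it gave an adjusted p. At an unadjusted p under 0.05 in edgeR, 3.75% of all genes were higher and 4.54% lower in KO, 3.42% higher and 4.82% lower in HxD and 2.85% higher and 3.2% lower in V. At these shares a list of 6 to 20 genes with 0 calls does not stand apart from the rest. Of 20 partners and regulators, all tested, edgeR called 0 in any mutant against WT, and DESeq2 also called 0. The medians were -0.10 in KO, 0.07 in HxD and -0.04 in V, and at an unadjusted p under 0.05 there were 1 higher and 3 lower in KO, 1 higher and 2 lower in HxD and 0 higher and 3 lower in V. The most abundant were Ddb1, a subunit of a ubiquitin ligase complex, with 1378 CPM in KO and 1308 CPM in WT, Dppa3, which protects methylated DNA in the zygote, with 702 CPM in KO and 760 CPM in WT, and Hcfc1, a partner of the glycosyltransferase OGT, with 552 CPM in KO and 687 CPM in WT.

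Of 16 genes for removal and repair of oxidised cytosine, edgeR called 0 in each mutant and DESeq2 0, with medians of 0.11 in KO, 0.14 in HxD and 0.36 in V. At an unadjusted p under 0.05, 1 of the 16 was higher in HxD and 0 passed in KO or V, against the 3.42% of all genes that were higher in HxD. The strand break sensor Parp1 averaged 1179 CPM in KO and 1085 CPM in WT, the ligase Lig1 479 CPM in KO and 457 CPM in WT, and the endonuclease Apex1 272 CPM in KO and 298 CPM in WT.

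Of 8 DNA methyltransferase and maintenance genes 6 were tested, and edgeR called 0. The medians were -0.54 in KO, -0.41 in HxD and -0.42 in V, and 3 of the 6 were lower at an unadjusted p under 0.05 in each mutant, with 1 higher in V, against 4.54%, 4.82% and 3.2% of all genes that were lower in KO, HxD and V. DESeq2 called Dnmt3a and Uhrf1 in KO, Uhrf1 in HxD and 0 genes in V. Uhrf1, which guides DNMT1 to replicated DNA, averaged 49.7 ± 18.1 CPM in KO, 51.8 ± 17.0 in HxD, 84.5 ± 26.7 in V and 115 ± 10.9 in WT (SD, n = 3 each). Its log2 fold change was -1.21 in KO against WT (SE 0.28, edgeR adjusted p = 0.0712) and -1.15 in HxD against WT (SE 0.28, edgeR adjusted p = 0.193). Dnmt3a, a de novo methyltransferase gene, averaged 103 ± 8.27 CPM in KO and 161 ± 34.2 CPM in WT (-0.65, SE 0.20, edgeR adjusted p = 0.24). The maintenance methyltransferase gene Dnmt1 averaged 705 CPM in KO, 799 in HxD, 751 in V and 788 in WT. The chromatin remodeller Hells averaged 650 CPM in KO, 686 in HxD, 659 in V and 874 in WT (-0.43, SE 0.15, edgeR adjusted p = 0.377 in KO against WT), and Uhrf2, a reader of modified cytosine, 148, 160 and 175 CPM in KO, HxD and V and 124 CPM in WT.

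Co-substrate supply and related enzymes gave 0 calls by edgeR as well. The 18 genes for 2-oxoglutarate and vitamin C had medians of 0.11 in KO, 0.06 in HxD and 0.08 in V, with 1 higher in KO, 1 higher and 1 lower in HxD and 1 higher and 1 lower in V at an unadjusted p under 0.05, counts that the shares over all genes do not set apart. DESeq2 called 1 of them, in HxD, the glutamate dehydrogenase gene Glud1, with 448 CPM in HxD and 317 CPM in WT (0.50, SE 0.15, edgeR adjusted p = 0.368). Of the other abundant members, Sdha averaged 535 CPM in KO and 496 CPM in WT and Ogdh 239 CPM in KO and 271 CPM in WT.

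The 9 genes of the AlkB family, Fto included, which belong to the same enzyme class and act on nucleic acids or, in some cases, on proteins, had medians of 0.38 in KO, 0.21 in HxD and 0.15 in V, with 1 higher in HxD at an unadjusted p under 0.05, against 3.42% of all genes, and 0 called by DESeq2. Among them were the RNA demethylase genes Alkbh5, with 372 CPM in KO and 390 CPM in WT, and Fto, with 116 CPM in KO and 88.8 CPM in WT, and the tRNA modification gene Alkbh8, with 25.6 CPM in KO and 37.7 CPM in WT. Of 21 histone demethylase genes of the class 20 were tested, with medians of -0.13 in KO, -0.10 in HxD and 0.01 in V, 3 of 20 lower in each mutant at an unadjusted p under 0.05, against 4.54%, 4.82% and 3.2% of all genes in KO, HxD and V, and 0 called by DESeq2. The H3K4 demethylase genes Kdm5b and Kdm5a averaged 440 and 239 CPM in KO and 575 and 308 CPM in WT, and the H3K9 demethylase gene Kdm3b 255 CPM in KO and 242 CPM in WT.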

How the data were processed

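RNA was sequenced from oligo-dT selected libraries. The authors deposited 1 table of raw whole-number read counts per gene symbol. The submitters' processing notes name featureCounts 2.0.3, STAR 2.7.10b, Trim Galore 0.6.7, SAMtools 1.9 and FastQC, with no settings. Both GRCm39 and mm10 appear there without a stated use. Annotation and strand setting were not given in these sources, so overlapping and antisense genes cannot be told apart in the counts. Positions come from GENCODE M21 on GRCm38, as do transcript lengths. Of the columns, 12 name a sample, and 1 names none and was not used, so a further WT sample was not analysed here.

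Counts were filtered with the default filter of edgeR 4.0.16, scaled by TMM and fitted with its quasi-likelihood model on the 12 libraries together, with a term for genotype alone. Tests were two-sided, adjusted by Benjamini-Hochberg over 14702 genes, with a threshold of 0.05. The common biological coefficient of variation was 0.932. An exact permutation test of 3 libraries against 3 cannot go below 0.1 and was not relied on. Nothing says that replicates are separate animals, so p-values measure the spread between these libraries, which may be technical. No 2 libraries had identical counts. The scripts were tested on simulated data, for KO against WT. Of 2-fold changes 88% were recovered at 100 CPM or more and 26% at 8 to 100 CPM, where the mean of Tet2 lay. Of 4-fold changes these shares were 100% and 73%. They are averages over genes of differing spread. Tet2 varied less within genotypes than most genes at its level, and a share for Tet2 itself was not simulated.

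The members and lists were chosen with earlier results of these data known. Named genes were the 3 members and the 5 genes closest to each by r, with unnamed gene models left out. Added to these were the 3 nearest tested genes on each side of each member. From each list came the members called by edgeR against WT, or else the 3 most abundant. Uhrf1 and Dnmt3a fell outside that rule and were named because DESeq2 called them. Of 92 list symbols 91 were found, 3 of them under an older name, and all 45 marker symbols were found. Alternatives were RLE scaling, DESeq2 1.42.0 with default settings, no filter, a filter of a mean of 5 CPM and fits of 2 genotypes. Others were a replicate block, each library left out, WT 3 and V 3 left out together, and coding length in place of transcript length.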

Additional observations from a re-analysis of the deposited data

How the results depend on the processing

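Tet1 was called in KO against WT (adjusted p of at most 0.000512) and in HxD against KO (at most 0.00107) under every alternative run. Its call in V against KO was lost in a fit of those genotypes alone (log2 fold change 1.18, adjusted p = 0.355) and without WT 3 and V 3 (0.94, adjusted p = 0.111). Both leave fewer libraries in the fit, and the cause was not tested. Tet2 was called in no comparison under any alternative run, and Tet3 in none of those that kept it. The filter of a mean of at least 5 CPM removed Tet3, which gives no value there. By sign and side of the threshold (a count within 1.5 times, a share within 1 SD), 305 recomputed values stayed, 57 counts and shares moved, 2 lost their call and 10 changed sign. Values of Tet3 that kept their sign could still differ widely in size, such as 5.41 without WT 1 and 2.99 with a replicate block, against 1.64, in V against WT. With coding length the share of Tet1 was 92.0, 97.5 and 94.3% in KO, HxD and V and 95.2% in WT, and that of Tet2 6.34, 1.78 and 3.89% in KO, HxD and V and 4.31% in WT. Without WT 3 and V 3, Tet3 changed sign to -0.23 in KO against WT and -0.0176 in HxD against WT.

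The number of genes called was 32, 5 and 0 in KO, HxD and V against WT, and 1, 3 and 0 in HxD against KO, V against KO and V against HxD. In that order it was 148, 67, 32, 8, 21 and 5 with no filter, 276, 183, 74, 111, 88 and 91 with DESeq2, and 14 in KO against WT, 1 in HxD against WT and 1 in V against KO with a mean of at least 5 CPM. It was 11, 2 and 0 in KO against WT, HxD against WT and V against KO without WT 3 and V 3, and 12, 2 and 0 in fits of 2 genotypes. With each library left out it ranged from 15 (without WT 1) to 95 (without WT 2) in KO against WT, from 1 (without HxD 3) to 47 (without HxD 1) in HxD against WT, from 0 to 10 (without WT 2) in V against WT, from 1 to 14 (without HxD 1) in HxD against KO, from 2 to 18 (without V 2) in V against KO and from 0 to 11 (without HxD 1) in V against HxD.

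With each library left out, Tet1 in HxD against WT ran from -0.0914 (without HxD 2) to 0.15. Tet3 ran from -0.23 (without WT 3) to 4.12 (without WT 1) in KO against WT, from -0.0175 to 4.33 with the same libraries left out in HxD against WT, and from -0.36 (without HxD 1) to 0.79 (without HxD 2) in HxD against KO.

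No pairing of libraries by replicate number was seen, as correlations of same-numbered deviations over all tested genes ran from -0.06 to 0.09. A batch shared by such libraries was not tested. A replicate block gave 104, 45, 8, 8, 16 and 2 genes called, in the order above, with Tet1 at -1.51 in KO against WT (adjusted p = 5.94e-10). Tet3 had 0 counts in HxD 2 and WT 3, with totals of 23723718 and 22858834 and 12231 and 11529 genes with a count. It had 79 and 89 counts in HxD 3 and V 3, the libraries with the lowest totals. There 12520 and 12100 genes had a count. The cause of the zeros was not tested.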
